A study of Caenorhabditis elegans with 12 samples.

Results

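Of the 1216 nuclear regions that carried a KLF-1-YFP peak in any of the 6 ChIP libraries, 183 had a peak in at least 2 of the 3 WT lists and at least 2 of the 3 *isp-1;ctb-1* lists. These regions, held by both strains, contained 1297 of the 3108 nuclear peaks. Members were found by pooling all peaks, merging those that shared 1 bp or more and counting the libraries in each merged region, so they were chosen by the presence of called peaks, and the number of libraries per region is given as a description. Both strains were *C. elegans* with the same integrated transgene, Is[pvha-6::klf-1-yfp], in which the intestinal *vha-6* promoter drives a KLF-1-YFP fusion. WT was N2 with the transgene, and *isp-1;ctb-1* was isp-1(qm150);ctb-1(qm189) into which the same integrated array had been crossed. The array also carried the pGH8 plasmid (a *rab-3* promoter with mCherry) and pRF4 (a dominant *rol-6* allele). Whole animals were collected on day 1 of adulthood after growth from eggs on HT115 bacteria with the L4440 plasmid, and chromatin was pulled down with GFP-Trap beads. There were 3 ChIP libraries per strain, each with an input library. All animals expressed the fusion protein, and no pull-down from animals without the tag was analysed here.

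KLF-1 is a Krüppel-like factor, one of a family of transcription factors whose C-terminal zinc fingers bind GC-rich and CACCC elements in promoters. In worms the family is known from the regulation of fat metabolism and lifespan. ISP-1 is the Rieske iron-sulphur protein of respiratory complex III and CTB-1 is its cytochrome b, encoded in the mitochondrial genome, and the double mutant is long lived with low respiration. A region held by both strains is a place where the tagged factor, or anything else that the pull-down and the sequencing enrich over input, was seen with and without the respiratory defect.

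The value given for each peak is its fold enrichment, the MACS2 ratio of ChIP signal to the local background, and a region takes its highest peak in each library. Among the members found in all 6 libraries, the best ranked by this measure, as the mean over libraries of its rank in the list, lay over *rps-15A*, a cytosolic ribosomal protein gene, and the next lay over *cyp-13A11*, a cytochrome P450 gene. The study designed a primer pair for *cyp-13A11* on chromosome III to follow binding by ChIP-qPCR. It is shown because this gene carried one of the best supported regions. Capitals mark CACCC, found by a search of both primers and both strands for CACCC and CGCCC, the forms of the KLF element. The search is a description of 2 short oligos, whose genomic position was not determined here.
cyp-13A11 forward: atggaCACCCaggacaacc
cyp-13A11 reverse: tgaataaaggcaaggcagtg

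The members were unevenly supported. A peak was present in all 6 libraries at 85 of them, in 5 libraries at 79 and in 4 libraries at 19. WT replicates 1 and 2 each had a peak at all 183 members, and WT replicate 3 had one at 149. In *isp-1;ctb-1* the numbers were 109, 175 and 182 for replicates 1, 2 and 3. Replicate 1 of *isp-1;ctb-1* thus lacked 74 members, and it was the absent library at 63 of the 79 regions with 5 libraries, while WT replicate 3 was absent at 15 of them. The members that *isp-1;ctb-1* replicate 1 lacked were weaker elsewhere, with a median fold enrichment of 1.81 in WT replicate 1 against 2.03 for those it held. They were also shorter, with a median merged span of 856 bp against 1295 bp. The members that WT replicate 3 lacked were not weaker in the other WT libraries: their median was 2.04 in WT replicate 1 against 1.91 for the members it held. Their median span was 724 bp against 1256 bp. By the form filed with the study, every *isp-1;ctb-1* ChIP library was sequenced more deeply than any WT ChIP library, so strain and sequencing depth cannot be told apart in any comparison of the strains. The lists give no read number per peak, and depth behind a single value is unknown.

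At the edge of the rule, the 19 regions with exactly 2 lists of each strain had median fold enrichments of 1.95 (WT) and 1.70 (*isp-1;ctb-1*) and a median span of 640 bp. Just outside it, 81 regions with 2 or 3 WT lists and 1 *isp-1;ctb-1* list had medians of 1.78 and 1.60 and a span of 652 bp, and 35 regions with 1 WT list and 2 or 3 *isp-1;ctb-1* lists had medians of 2.06 and 2.16 and a span of 454 bp. The single *isp-1;ctb-1* list was that of replicate 3 at 63 of those 81 regions.

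A reference level within each library is the mitochondrial genome, which carries no nuclear chromatin and was nonetheless in the peak lists. Its highest peak reached 2.06, 2.04 and 1.89 in WT replicates 1, 2 and 3, and 1.33, 1.45 and 1.66 in *isp-1;ctb-1*. In 48 of the 183 members (26.2%) the highest peak lay within 5% of that value in most of the libraries where it was found, against 10.1% of the other nuclear regions. At 89 members no library exceeded the mitochondrial value by more than 5%, and 18 members lay more than 5% below it in every library with a peak. Only 8 members, 4.37% of all, exceeded it by more than 5% in every library with a peak, against 48.1% of the other nuclear regions. The counts of 89 and 18 are given without such a share. The other regions mostly have a peak in fewer libraries, so a condition on most or every library is not met equally easily by them. These shares rest on the values of the peaks themselves and are descriptions. What brings so many regions to the mitochondrial level was not tested.

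**Figure D1:**
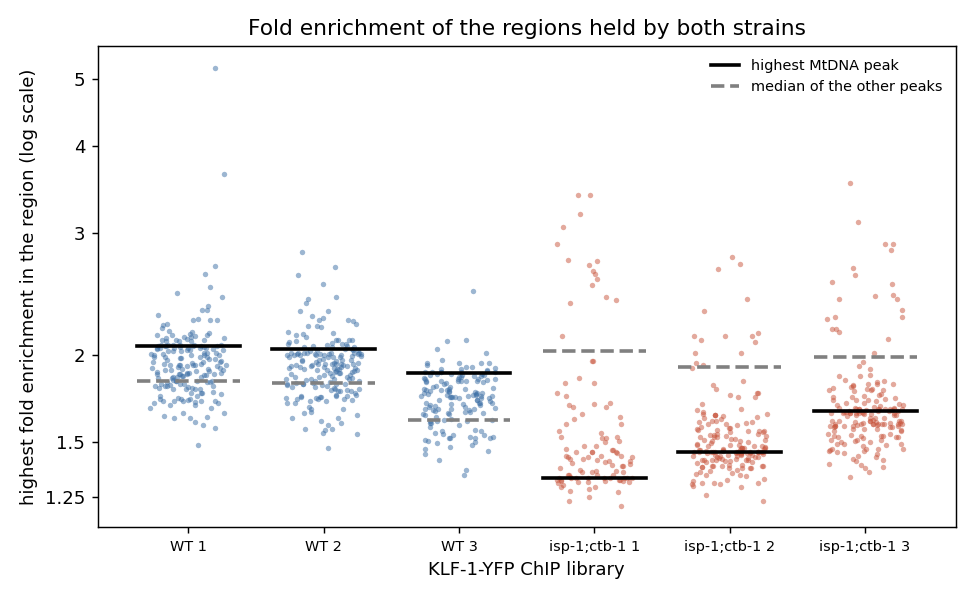
Highest fold enrichment (log axis) of each region held by both strains, one point per region, in the 3 WT (blue) and 3 isp-1;ctb-1 (red) ChIP libraries. The solid line is the highest MtDNA peak of that library (2.06, 2.04, 1.89, 1.33, 1.45 and 1.66 from left to right) and the dashed line the median of the peaks outside these regions, which lies below most points in WT and above most points in isp-1;ctb-1.

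The 8 members above the mitochondrial level throughout are described first. The region at chrIII:1950287-1951524 (WBcel235, as are all positions here) covered the whole of *rps-15A*. Its fold enrichment was 5.19, 2.68 and 2.48 in WT and 2.57, 1.79 and 3.55 in *isp-1;ctb-1*. It ranked first in WT replicates 1 and 3 and second in WT replicate 2, but 115th in *isp-1;ctb-1* replicate 2, and the strains overlapped. The region at chrIII:13022586-13023865 lay inside *cyp-13A11* and 682 bp from its neighbour *cyp-13A12*, another cytochrome P450 gene. It reached 3.65, 2.82 and 2.01 in WT and 2.43, 1.83 and 2.89 in *isp-1;ctb-1*, again with overlapping strains. At neither was a strain difference detected once libraries were centred as described below. The differences were 0.00 ± 0.32 and 0.14 ± 0.21 SE on the log2 scale (limma adjusted p = 0.992 and 0.732). These SE are too wide to exclude a difference. From its ChIP-seq the paper places a KLF-1-bound region directly upstream of *cyp-13A11*, whereas the region here lay within the RefSeq span of the gene. By ChIP-qPCR, with primers whose position was not determined here, the paper reports KLF-1 at the *cyp-13A11* promoter in WT and more efficient binding in *isp-1;ctb-1*.

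The third of the 8 with a peak in every library was a gene-free stretch at chrII:3943714-3945039. It had fold enrichments of 2.22, 2.53 and 2.10 in WT and 1.96, 1.93 and 2.26 in *isp-1;ctb-1*. It was the middle of 3 members within 4675 bp, chrII:3941871-3946545, upstream of *sea-2*, a zinc finger gene known from X-chromosome counting in sex determination. The right-hand member, assigned to *sea-2* at 3600 to 4520 bp, was the best ranked member with an assigned gene among those found in all 6 libraries, and reached 2.04, 2.42 and 1.72 in WT and 1.76, 2.13 and 2.18 in *isp-1;ctb-1*. All 3 were found in all 6 libraries.

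The remaining 5 shared one pattern of presence, with a peak in WT replicates 1 and 2, in every *isp-1;ctb-1* library and none in WT replicate 3. The region at chrI:1836232-1837372 lay inside *egl-30*, the Gq alpha subunit that drives neuromuscular signalling, and 794 bp from *rpl-27*, a ribosomal protein gene. It reached 2.28 and 2.28 in WT and 2.62, 2.13 and 2.67 in *isp-1;ctb-1*. The region at chrIV:14033105-14034315 held the microRNA gene *mir-52*, of the mir-51 family that acts broadly in embryonic development, together with 6 other non-coding genes. Its values were 2.46 and 2.26 in WT and 2.73, 2.41 and 2.54 in *isp-1;ctb-1*. The region over one end of *tasp-1*, the worm taspase gene (chrIII:10759026-10759656), reached 2.69 and 2.25 in WT and 3.41, 2.15 and 2.55 in *isp-1;ctb-1*. The region at chrIII:4281712-4282631 lay 1488 bp from *sup-26*, which encodes an RNA-binding protein of the sex determination pathway, with values of 2.50 and 2.31 in WT and 2.53, 2.77 and 2.84 in *isp-1;ctb-1*. The last, chrII:5346420-5346831 over *F09E5.9*, protein-coding in the deposited annotation and a pseudogene in RefSeq, had values of 2.36 and 2.25 in WT and 2.40, 2.01 and 2.16 in *isp-1;ctb-1*. Only at *sup-26* did all *isp-1;ctb-1* values lie above both WT values.

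**Figure D2:**
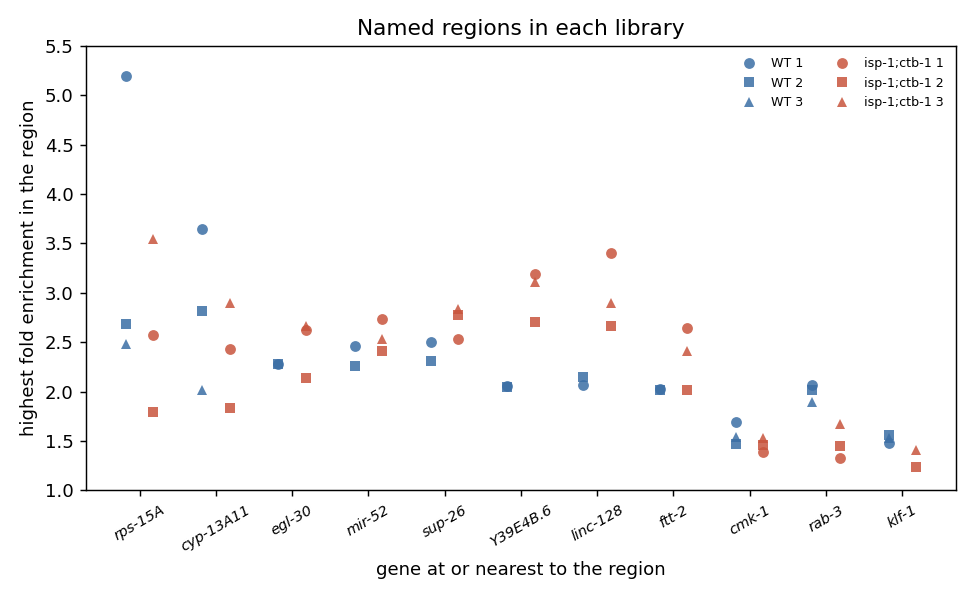
Highest fold enrichment (linear axis, starting at 1) in each library for 11 regions named by the gene at or nearest to them; marker shape gives the replicate and a missing marker means no peak in that list. At rps-15A and cyp-13A11 the replicates of 1 strain spread over more than the difference between strains, at Y39E4B.6 and linc-128 all isp-1;ctb-1 points lie above both WT points, and at rab-3 all isp-1;ctb-1 points lie below WT.

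The strains were then compared region by region. The highest log2 fold enrichment of each region was fitted by limma over the 184 regions with at least 2 values per strain, the mitochondrial one included, after each library had been centred on its median over the regions present in all 6 libraries. Regions without a peak in a library have no value there, so a difference compares the libraries in which a peak was called. In the centred fit 2 regions passed a Benjamini-Hochberg adjusted p of 0.05, 1.09% of the regions tested, both higher in *isp-1;ctb-1*. None was lower, and 47 members had an unadjusted p under 0.05. The scaling decided the rest. As deposited, 93 regions passed (50.5%), of which 3 (1.63%) were higher and 90 (48.9%) lower in *isp-1;ctb-1*. Centring removes a shift of -0.36 on the log2 scale between the strains at regions with a peak in all 6 libraries. Where a library has no peak the amount differs. At the first region of chromosome I, which lacked *isp-1;ctb-1* replicate 1, the difference went from -0.34 to -0.03. At *Y39E4B.6*, which lacked WT replicate 3, it went from 0.55 to 0.96. Centred differences of regions lacking different libraries are therefore not strictly comparable. In the fit as deposited, regions with 3 values per strain had the same SE of 0.109, from a variance pooled over regions. The shift has the same sign at all regions, so the calls as deposited are not separate findings. The lower group as deposited was 89 members and the mitochondrial region, whose own difference was -0.43 as deposited and -0.06 after centring, and 41 of the 89 members were among those at the mitochondrial level. After centring 136 members lay above 0 and 47 below, and the centred differences ran from -0.10 to 0.96. Read as non-overlapping ranges of the deposited values, 127 of the 183 members were lower and 4 higher in *isp-1;ctb-1*. Over the 184 regions tested the shares were 69.6% and 2.17%. Those regions are the same members and the mitochondrial one, so the shares are no separate background.

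Only the region over one end of *Y39E4B.6*, chrIII:13070327-13070984, passed under both scalings. Its fold enrichment was 2.06 and 2.04 in WT replicates 1 and 2, absent in replicate 3, and 3.19, 2.71 and 3.11 in *isp-1;ctb-1*. The centred difference was 0.96 ± 0.11 (SE, limma adjusted p = 0.0220), and as deposited it was 0.55 (adjusted p = 0.00139). The pass as deposited rests on the pooled variance and carries the shift described above, so it adds no independent evidence. Without *isp-1;ctb-1* replicate 3 the centred call was lost (limma adjusted p = 0.0579). Without WT replicate 1 or 2 a single WT value is left and no fit was made. The region near *sup-26* passed after centring (0.58 ± 0.06 SE, limma adjusted p = 0.0220) and not as deposited (0.17, adjusted p = 0.204). With a replicate block neither this region nor that of *Y39E4B.6* passed (limma adjusted p = 0.111 at both).

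The regions at *linc-128* and *C30E1.9* passed as deposited and not after centring. The same limit on the fit as deposited applies to both. The first, chrV:1151138-1151805 within the long non-coding gene *linc-128*, was assigned to *cmd-1*, the calmodulin gene, from 4466 to 4590 bp upstream. It reached 2.06 and 2.15 in WT and 3.41, 2.66 and 2.89 in *isp-1;ctb-1* (0.50 as deposited, adjusted p = 0.00140; 0.91 ± 0.16 SE after centring, adjusted p = 0.0685). At *C30E1.9*, a non-coding gene on X, the values were 2.21 and 1.84 in WT and 3.06, 2.32 and 2.41 in *isp-1;ctb-1* (0.35 as deposited, adjusted p = 0.0126; 0.76 ± 0.19 SE after centring, adjusted p = 0.0840). Without *isp-1;ctb-1* replicate 1 both passed after centring (limma adjusted p = 0.00542 and 0.0314), and the number of calls rose from 2 to 18.

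The members with the larger centred differences had more in common than their sign. A group of 13 with a difference over 0.4, cut after the values were seen and therefore untested, had no peak in WT replicate 3 at 12 of them, against 22 of the other 170. A RefSeq gene overlapped 11 of the 13 (84.6%), against 34 of the other 170. Besides the regions named above, it held one 180 bp from *ftt-2*, which encodes a 14-3-3 protein that retains DAF-16 in the cytoplasm, with 2.03 and 2.01 in WT and 2.65, 2.02 and 2.41 in *isp-1;ctb-1*. Another lay within *gei-4*, with 2.32 and 2.08 in WT and 2.89, 2.09 and 2.61 in *isp-1;ctb-1*. One lay 106 bp from *sor-1*, a gene of Hox silencing, with 1.97 and 2.38 in WT and 2.70, 2.13 and 2.27 in *isp-1;ctb-1*. A further one lay within *ocrl-1*, a phosphoinositide phosphatase gene, and reached the edge of *eat-16*, a regulator of G protein signalling that opposes *egl-30*, with 2.03 and 2.08 in WT and 2.38 and 1.93 in replicates 1 and 3 of *isp-1;ctb-1*. At *ftt-2*, *gei-4*, *sor-1* and *ocrl-1* the values of the strains overlapped. The cut is not independent of the absence from WT replicate 3. That library had the lowest centring median in WT (0.85, against 1.01 and 0.97). Centring therefore added more to a region without it that had all *isp-1;ctb-1* values. At *egl-30*, *tasp-1* and *mir-52* the differences were 0.11, 0.11 and 0.12 as deposited and 0.52 at each after centring. Whether the absence bears on the differences in any other way was not tested.

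**Figure D3:**
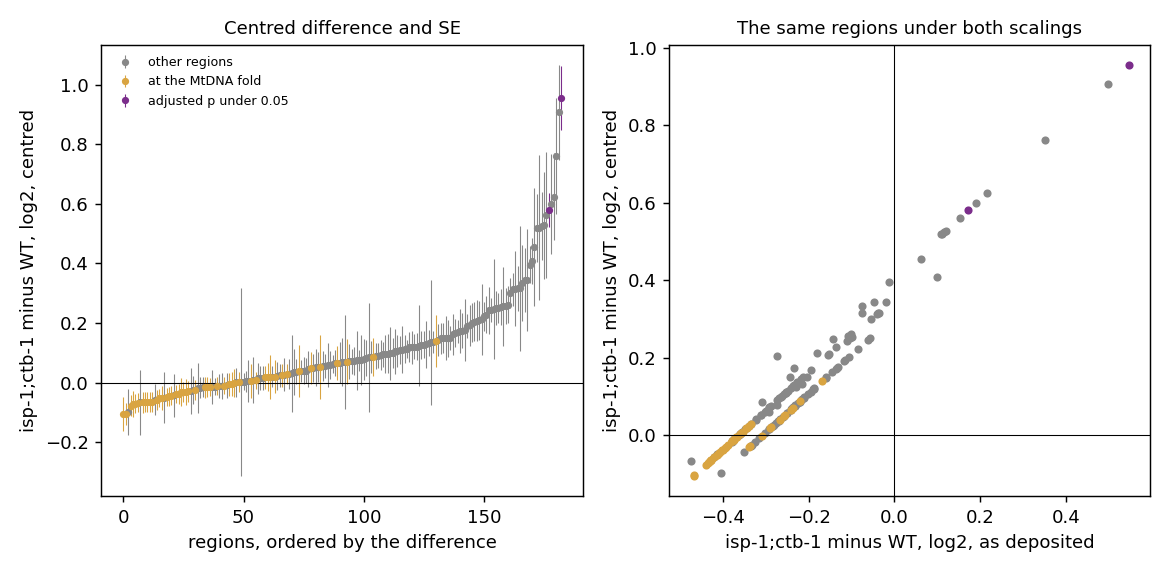
Difference in highest fold enrichment, isp-1;ctb-1 minus WT on the log2 scale, at the 183 regions held by both strains. The left panel shows centred values with their limma SE in rising order, the right panel the same values against those without centring; the 2 regions that passed after centring are purple, the 48 at the MtDNA level are yellow and lie at or below 0.14 after centring, and most points lie left of 0 on the deposited scale.

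Among the 85 members found in all 6 libraries, none passed after centring. The 5 largest positive centred differences, all of them below 0 as deposited, were at *sea-2* (0.34 ± 0.11 SE, limma adjusted p = 0.112), in *cmk-1*, calcium/calmodulin-dependent kinase I (0.26 ± 0.06, adjusted p = 0.0685), near *cfz-2*, a Frizzled receptor gene (0.26 ± 0.06, adjusted p = 0.0685), near *Y57G11C.51* (0.26 ± 0.13, adjusted p = 0.250) and near *zig-9* (0.23 ± 0.06, adjusted p = 0.0840). In *cmk-1* the fold enrichments were 1.69, 1.47 and 1.54 in WT and 1.38, 1.46 and 1.52 in *isp-1;ctb-1*. The 5 largest negative ones were smaller, from -0.07 near *C24H10.3* to -0.10 at *Y32H12A.9* (limma adjusted p from 0.156 to 0.322), and all 5 regions were at the mitochondrial level. The order of fold enrichment across these 85 regions was more alike within a strain, with Spearman's rho from 0.47 to 0.77, than between strains, from 0.22 to 0.62. This is a description across regions that share a library, not a test. Merging by overlap keeps the peaks of a region close together by construction. Within that limit, the SD of the centre over 6 libraries had a median of 50.4 bp and was under 100 bp at 57 of the 85.

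Member peaks held an opposite place in the lists of the strains. In WT the median fold enrichment of member peaks was above that of the other nuclear peaks, at 1.92 against 1.84, 1.91 against 1.83 and 1.70 against 1.61. In *isp-1;ctb-1* it was below, at 1.38 against 2.03, 1.45 against 1.92 and 1.60 against 1.99. From the top of the list the median member peak stood at 40.9% to 43.9% of the list in WT and at 65.8% to 86.3% in *isp-1;ctb-1*. Of the *isp-1;ctb-1* member peaks, 40.8% to 52.2% lay within 5% of the mitochondrial value, against 0.221% to 11.4% of the other peaks. In WT the shares were 25.8% to 34.7% and 12.5% to 23.4%.

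Whether support from the other strain went with being found again was asked library by library, and the difference did not exceed the spread between libraries. Each library in turn was set aside, regions were built from the other 5, and those with a peak in both remaining libraries of the strain were split by whether the other strain had them too. In WT the share found again in the library set aside was 100%, 100% and 81.3% with the other strain, and 89.0%, 96.5% and 38.4% without it. In *isp-1;ctb-1* the shares were 57.5%, 92.6% and 99.0% with WT, and 92.7%, 48.4% and 76.0% without. The difference averaged 14.9 percentage points and was positive in 5 of 6 libraries (exact sign-flip permutation test, two-sided p = 0.25, with 0.031 the smallest p that 6 libraries allow). With a fold enrichment over 1.5 it was 2.07 points (exact permutation p = 0.812). The exception was *isp-1;ctb-1* replicate 1, where 100 of 174 regions shared with WT were found and 76 of 82 of the others.

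The peaks were long in both strains. Members had a median merged span of 1148 bp (296 to 11082 bp) against 331 bp for the other regions, and 37 exceeded 2000 bp. Since a longer peak more readily meets another, span is tied to the rule. The median member peak measured 768.5, 845.5 and 685 bp in WT and 446, 454 and 534 bp in *isp-1;ctb-1*, without overlap (difference of -0.68 on the log2 scale, exact permutation test, p = 0.1, the smallest that 3 against 3 can give). Among peaks with a fold enrichment over 1.5 the difference was -0.34. The *isp-1;ctb-1* libraries also broke members into more peaks, 1.45 to 1.53 per member against 1.10 to 1.33 in WT, and the bases covered per member had medians of 631, 621 and 798.5 bp against 1048, 1065 and 1041 bp (exact permutation p = 0.1). The longest member, chrI:15060282-15071363, covered the ribosomal RNA genes at the right end of chromosome I, and the shortest, at 296 bp, lay on chromosome II near *ZK131.11*.

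Members lay largely outside genes. A RefSeq gene overlapped 45 of the 183 (24.6%), against 43.5% of the other regions, and a protein-coding gene overlapped 27 (14.8%), against 34.5%. Peak by peak, the share that overlapped a gene was 22.2%, 22.3% and 17.7% for member peaks in WT and 30.9%, 29.9% and 26.9% for other peaks. In *isp-1;ctb-1* it was 20.96%, 15.4% and 20.0% for member peaks and 54.4%, 43.2% and 44.5% for other peaks. Member peaks were lower in 6 of 6 libraries, by 18.6 percentage points on average (exact sign-flip permutation test, p = 0.031). This comparison was added after the data were seen. By the rule, members are largely the same regions in every library. The 6 differences are therefore not independent, and agreement of sign over libraries was partly built in.

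The deposited gene assignments gave the same direction. They put a gene on 92 members and none on 91. Because none of the 607 peaks on chromosome III carried an assignment in any list, the 31 members there, *rps-15A*, *cyp-13A11*, *tasp-1* and *Y39E4B.6* included, count as having none whatever lies under them. Off chromosome III, 92 members had a gene and 60 had none (60.5% with one), against 77.5% of other regions. Over all chromosomes the share of peaks with a gene was 42.3% to 48.5% for member peaks and 49.0% to 72.1% for other peaks, lower in 6 of 6 libraries by 12.9 percentage points on average (exact sign-flip permutation test, p = 0.031). With chromosome III left out it was 18.6 points (exact permutation p = 0.031), and the gap was 0.702 to 4.81 points in WT and 24.1 to 39.5 points in *isp-1;ctb-1*. Without peaks over 2000 bp the average over all chromosomes was 6.17 points, with 0.136 to 1.97 points in WT. Among peaks with a fold enrichment over 1.5 it was 23.0 points. The member share was lower in 6 of 6 libraries under both settings. These differences too come from largely the same members in each library and are not independent.

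**Figure D4:**
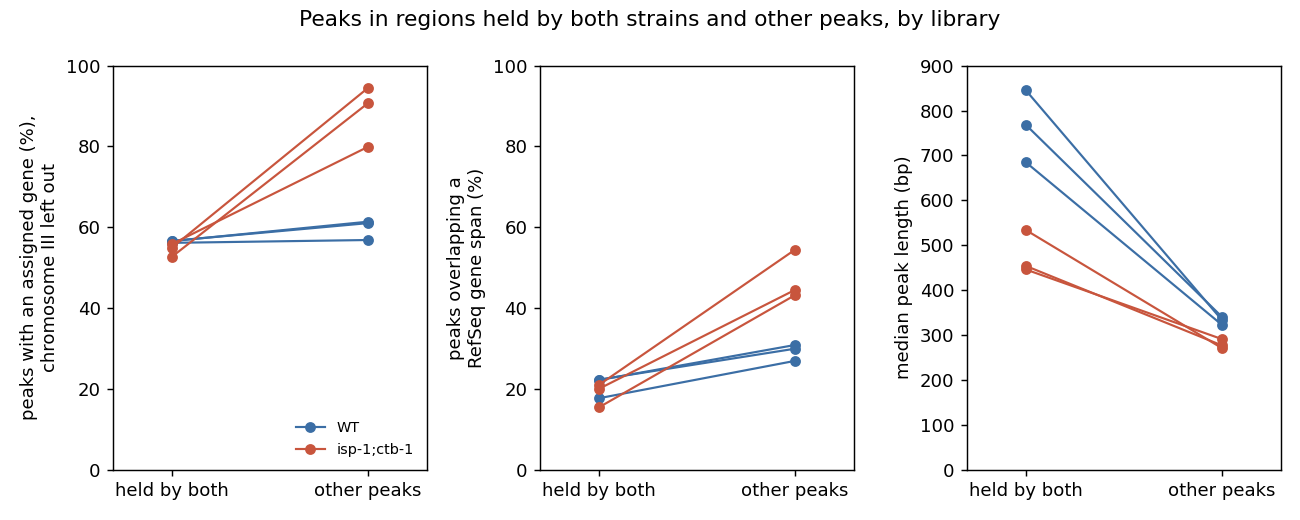
For each library (WT blue, isp-1;ctb-1 red) a line joins the peaks in regions held by both strains to all other nuclear peaks, for the share with an assigned gene off chromosome III, the share that overlaps a RefSeq gene and the median length. All lines rise in the left and middle panels, more steeply in isp-1;ctb-1, and all fall in the right panel, which is tied to how the regions were chosen.

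Where a gene was assigned, member peaks less often lay over it when peaks of every fold enrichment were counted. Every pair was upstream of the gene or over it, and 122 genes were named, of which 117 were protein-coding, 3 miRNAs and 2 lincRNAs. Member peaks covered their gene in 22.9% to 31.3% of cases and other peaks in 40.7% to 45.5%, lower in 6 of 6 libraries by 17.6 percentage points on average (exact sign-flip permutation test, p = 0.031). Among peaks with a fold enrichment over 1.5 the gap was 1.54 points (exact permutation p = 0.469), and members were lower in 4 of 6 libraries. In WT replicates 1 and 2 the order reversed there, at 45.7% against 40.1% and 42.4% against 40.3%. As above, the 6 libraries share most of their members, so their differences are not independent. By nearest pair, 26 members had a peak over the gene, 33 within 2000 bp upstream and 33 beyond, up to 4886 bp. The median distance over all pairs was 2040 bp at members and 1092 bp elsewhere. Of the 122 genes, 28 were also assigned to a peak outside the members.

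Members with and without an assigned gene were compared by span, level and position. Off chromosome III the median span was 1145 bp with a gene and 1149 bp without, the share at the mitochondrial level 29.3% and 25.0%, and the share found in all 6 libraries 43.5% and 50%. On chromosome III the figures were 1180 bp, 19.4% and 48.4%. Peaks without a gene were longer by 0.08 on the log2 scale over 6 libraries (exact sign-flip permutation test, p = 0.25) and their fold enrichment differed by 0.01 (p = 0.406), neither beyond the spread between libraries. Among peaks with a fold enrichment over 1.5 those without a gene were longer by 0.30 (exact permutation p = 0.031, the smallest possible). The assignment itself uses the position of genes, and a RefSeq gene overlapped 29.3% of members with an assigned gene and 16.7% of those without one off chromosome III. A protein-coding RefSeq gene lay within 2000 bp of 45.0% of members without an assigned gene off chromosome III, against 73.9% of those with one.

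The best ranked members with an assigned gene, by mean rank over the 6 lists among regions found in all of them, were led by *sea-2* and then by *C10E2.1* (2.25, 2.20 and 1.83 in the WT lists; *isp-1;ctb-1*, 1.83, 1.64 and 1.86), *Y75D11A.1*, *M4.1*, *Y7A5A.7* and *zig-9*, an immunoglobulin domain gene. *ttr-17*, a transthyretin-related gene, *C24H10.3* and *Y95B8A.2* followed. The last 3 of the 12 were *rol-6*, a cuticle collagen gene, *aex-5*, a proprotein convertase gene whose neighbour *unc-54* encodes body wall muscle myosin, and *rab-3*, a synaptic vesicle GTPase gene. These 3 had fold enrichments of 2.06 to 2.07, 2.01 and 1.89 in WT and 1.33, 1.45 and 1.67 in *isp-1;ctb-1*, within 1.3% of the mitochondrial peak in every library. Parts of *rab-3*, *rol-6* and the *vha-6* promoter were on the injected array. The region assigned to *aex-5* overlapped *unc-54* by 392 bp, and *unc-54* DNA is also carried by plasmids used for worm transgenes. The member 1860 bp from *cox-14*, whose yeast namesake is an assembly factor of cytochrome c oxidase, had the same values as *rol-6* in all 6 libraries. Without an assigned gene the 8 best were *rps-15A*, *cyp-13A11*, the other 2 regions upstream of *sea-2*, 3 regions of the 5S rRNA and SL1 spliced leader cluster on chromosome V, and one at *Y95D11A.5* on chromosome I (2.05, 2.00 and 1.91 in the WT lists; *isp-1;ctb-1*, 1.53, 1.74 and 1.78).

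The fusion gene's own locus held 2 members. A 437-bp region within *klf-1* had 1.48, 1.56 and 1.53 in WT and 1.23 and 1.41 in replicates 2 and 3 of *isp-1;ctb-1*, 15.2% to 28.1% below the mitochondrial level, and a 492-bp region had 1.90, 1.85 and 1.78 in WT and 1.44 and 1.66 in *isp-1;ctb-1*. Reads from the transgene and from the gene itself cannot be told apart.

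Many members were neighbours. With gaps of up to 5000 bp allowed, 85 of the 183 fell into 31 clusters of 2 to 6, so the number of separate loci was 129. A cluster of 6 spread over 15128 bp at chrI:10204138-10219265, and another over 14362 bp at chrIII:13584873-13599234, where WT replicate 3 had a peak at only 1 of the 6. By chromosome, members made up from 12.0% of nuclear regions on III to 19.05% on V.

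Few genes of any protein-coding family lay near a member. Within 2000 bp of a member lay 158 protein-coding genes, 0.791% of 19971, which is the level to read a family against. Of 78 cytosolic ribosomal protein genes 2 were near a member (*rps-15A* and *rpl-27*, 2.56%). Of 80 cytochrome P450 genes 2 were (*cyp-13A11* and *cyp-13A12*, 2.5%), both at the same region. C-type lectins had 5 of 264 (1.89%), among them *clec-9*, *clec-80*, *clec-175* and *clec-223*. The region within *clec-223* reached 2.10, 1.94 and 1.78 in WT and 1.46, 1.60 and 1.49 in *isp-1;ctb-1*. Chemoreceptors had 7 of 1471 (0.476%), among them *srb-16*, *sre-47*, *srg-19* and *srj-17*. F-box and MATH/BATH genes had 4 of 505 (0.792%), namely *fbxa-28*, *fbxa-55*, *fbxa-75* and *fbxa-221*. No gene of the mitochondrial ribosome (71), translation factors (39), proteasome (33), chaperones (63), UDP-glucuronosyltransferases (67), glutathione S-transferases (44), nuclear hormone receptors (283) or core histones (72) lay within that distance. These lists, that of the nuclear hormone receptors included, are too short for an empty one to stand out from 0.791%. Of 53 respiratory chain genes only *cox-14* lay within that distance (1.89%), of 170 collagens only *rol-6* (0.588%), and of 3 KLF genes only *klf-1*. None of the 5 germline markers lay near a member, on a list as short as the other marker lists. Of those, 1 of 15 intestinal markers and vitellogenins (*vha-6*) and 1 of 5 muscle markers (*unc-54*) did. So did 1 of 5 neuronal (*rab-3*) and 1 of 4 hypodermal markers (*rol-6*). Each of these 4 is also among the genes whose DNA is carried by plasmids used for worm transgenes, a list of 5 with *klf-1*, and all 5 were near a member. Of the repeated RNA genes, 31 of 52 rRNA and SL1 genes were near a member, most of them in the cluster on chromosome V.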

How the data were processed

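KLF-1-YFP was measured by ChIP-seq in 3 WT and 3 *isp-1;ctb-1* libraries (whole animals, 51-bp single reads). Per the submitters' processing notes, FastQC 0.10.1, BWA and MACS2 2.0.10 were used; their other settings were not stated. The deposited lists hold, for each peak, the fold enrichment that the authors' MACS2 call gave as a linear ratio, and genes assigned from Ensembl 93 (WBcel235). Their p-values, and a table of the authors' own strain comparison (condition means, fold change, p-value), were not used. Values are only those of called peaks, so a region without a peak has no value rather than a low one.

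Here peaks were merged across libraries, and regions were annotated with RefSeq genes of WBcel235, piRNA genes left out (31527 of 46926 genes kept). Of 954 assigned symbols 830 were in that table. Strain differences were fitted with limma 3.58.1 (R 4.3.3) on log2 ratios. Quantities per library were compared with exact sign-flip or permutation tests, two-sided (Python 3.11.15, numpy 2.4.6, pandas 2.3.3). The scripts were tested on simulated data. The labels do not say whether replicates came from separate cultures, so p-values measure the spread between these libraries. In comparisons of member peaks the libraries share most regions, so the 6 values of a test are not independent. Genes were named by rank over the 6 lists, by list and by size of the strain difference. The members and gene lists were chosen with earlier results of these data known. Promoter sequence and KLF motifs were not analysed here.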

Additional observations from a re-analysis of the deposited data

Results flagged for a closer look

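Member peaks and other peaks stood in opposite order in the strains. On the log2 scale the median fold enrichment of member peaks was above that of other peaks in all 3 WT libraries (0.06, 0.07 and 0.08, mean 0.0699) and below it in each *isp-1;ctb-1* library (-0.55, -0.40 and -0.31, mean -0.423). The difference between strains was -0.49 (exact permutation test, p = 0.1, the smallest that 3 against 3 can give). The strains also differed in sequencing depth, whose part was not tested.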

How the results depend on the processing

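The count of 183 regions was 180 with half-overlap of the shorter peak required and 156 without peaks over 2000 bp, and moved to 333 with 1 of 3 lists, 85 with 3 of 3 and 78 with a fold enrichment over 1.5. Leaving out 1 library gave 100 to 182, the low values being 108 without *isp-1;ctb-1* replicate 2 and 100 without replicate 3. Strain calls (2 of 184 after centring) were 93 without centring, 4 with the mean over peaks, 0 in the 86 regions found in all 6 libraries (20 at an unadjusted p under 0.05), 3 without the regions at the mitochondrial level and 5 when centred on them, the last 2 settings added after seeing the data. Leaving out 1 library gave 1 to 18 calls, 18 without *isp-1;ctb-1* replicate 1 and 1 without WT replicate 2 or *isp-1;ctb-1* replicate 3. With a replicate block there were 0 calls by limma (49 at an unadjusted p under 0.05, and adjusted p = 0.111 at both *Y39E4B.6* and *sup-26*). The deviations of same-numbered libraries had r = 0.32, 0.34 and -0.36 for replicates 1, 2 and 3. Differently numbered pairs ran from -0.70 (WT 1 with *isp-1;ctb-1* 2) to 0.53 (WT 3 with *isp-1;ctb-1* 2). Deviations from a mean of 3 libraries are tied to each other, so these values cannot decide whether the numbers pair the libraries. The gene share kept its direction in all settings, at -6.17 points without peaks over 2000 bp, -23.0 with a fold enrichment over 1.5 and -9.72 to -15.1 with 1 library left out, where 5 libraries cannot reach p below 0.0625. The share of peaks over their gene ran from -16.8 to -18.2 points in the same way and was -1.54 with a fold enrichment over 1.5. Length without against with a gene was -0.022 without peaks over 2000 bp and 0.30 (exact p = 0.031) with a fold enrichment over 1.5; fold enrichment without against with a gene was -0.0027 and -0.0010 under these settings. The difference in regions found again kept its sign in all settings, at 2.07 points with a fold enrichment over 1.5, and with 1 library left out of the mean it ran from 9.05 to 24.9 points. Protein-coding genes near members numbered 105 within 1000 bp and 302 within 5000 bp. The search for KLF motifs in promoters was not run.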
